A study of Mus musculus with 24 samples.

Results

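Elastic fibres give tissue its recoil, and their genes were followed here in 6 groups of mouse hearts. The genes were chosen by name and by role: the fibrillins Fbn1 and Fbn2, elastin (Eln), the latent TGF-beta binding proteins Ltbp1, Ltbp2, Ltbp3 and Ltbp4, and the microfibril-associated proteins Mfap2, Mfap4 and Mfap5. These genes and the related lists given later were chosen with earlier results of these data known. Each symbol matched 1 Ensembl gene, which gave 10 of the 43432 gene rows of the count table.

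An elastic fibre has a core of cross-linked elastin laid down on a scaffold of microfibrils, which are built from fibrillins with microfibril-associated proteins attached. Latent TGF-beta binding proteins (LTBPs) resemble fibrillins in their domains, and several of them hold the inactive TGF-beta complex in the matrix until it is released. Ltbp2 is known not to bind latent TGF-beta. In the heart these fibres lie mainly in vessel walls, valves and the matrix that fibroblasts make.

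All hearts came from C57BL/6 mice, 4 hearts per group, and total RNA was sequenced after depletion of ribosomal RNA. Sedentary mice were set against mice that ran on wheels for 8 weeks. Transverse aortic constriction (TAC), in which the aorta is narrowed by surgery so that the left ventricle pumps against pressure, was followed for 2 weeks in hearts that the labels mark LVH (left ventricular hypertrophy) and for 8 weeks in hearts marked HF (heart failure). Each TAC group had its own sham-operated group, called here the LVH shams and the HF shams. The labels name no transgene, drug, sex or age, and no time after surgery for the shams. They do not say that the hearts of a group came from separate animals, so the p-values measure the spread between these samples.

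Libraries held 16802939 to 39512101 counts (median 22845050), of which mitochondrially encoded transcripts took 50.7% to 73.6%, so that 5949640 to 12932067 counts remained for all other genes. Every TAC library had a lower mitochondrial share (50.7% to 58.4%) than every sham library (59.8% to 67.0%) and a higher TMM factor (1.09 to 1.42 against 0.861 to 0.980). The part of this in the TAC changes was not tested. Levels are given as CPM, counts put on a common library size by TMM over all 24 libraries, with the 4 values of a group in the order of replicates 1 to 4. The mean ± SD is over n = 4 hearts. The cardiac identity of the samples was plain: 11 cardiomyocyte markers summed to between 34031 and 59427 CPM in every heart.

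At 2 weeks of TAC 9 of the 10 genes rose, with Ltbp2 (17.5-fold), Eln (8.81-fold), Mfap4 (7.15-fold) and Fbn2 (6.87-fold) ahead of Mfap5, Fbn1, Mfap2, Ltbp3 and Ltbp4 (edgeR adjusted p at most 0.00131). Of the 14224 genes tested there, 17.1% were called higher and 16.1% lower (33.2% in all) at an edgeR adjusted p under 0.05. The 4 TAC values lay above the 4 sham values for 9 of the 10 genes and for 16.8% of all genes tested. Both counts of 9 include Mfap2. That gene passed the filter on low counts only through the TAC hearts, so that a difference was built into its being tested. At 8 weeks 7 of 9 tested genes rose and Ltbp1 fell. Among the 13621 genes of that comparison, 14.9% were called higher and 14.7% lower (29.6% in all). Here 6 of the 9 tested genes, and 15.7% of all genes tested, had TAC values above all sham values. The Ltbp1 change had no call when libraries were scaled by total count alone (log2 -0.18, edgeR adjusted p = 0.165).

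Wheel running gave no call for any of the 9 genes tested. This comparison had 0% called of 13824 genes by edgeR, with 665 genes at an unadjusted p under 0.05 and 6 genes called by DESeq2. The median log2 change over the tested genes of the family was 2.64 at 2 weeks of TAC, where Mfap2 entered only through the TAC hearts, 1.163 at 8 weeks and -0.10 with running, beside medians over all tested genes of -0.0021, 0.0035 and 0.0053.

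**Figure D1:**
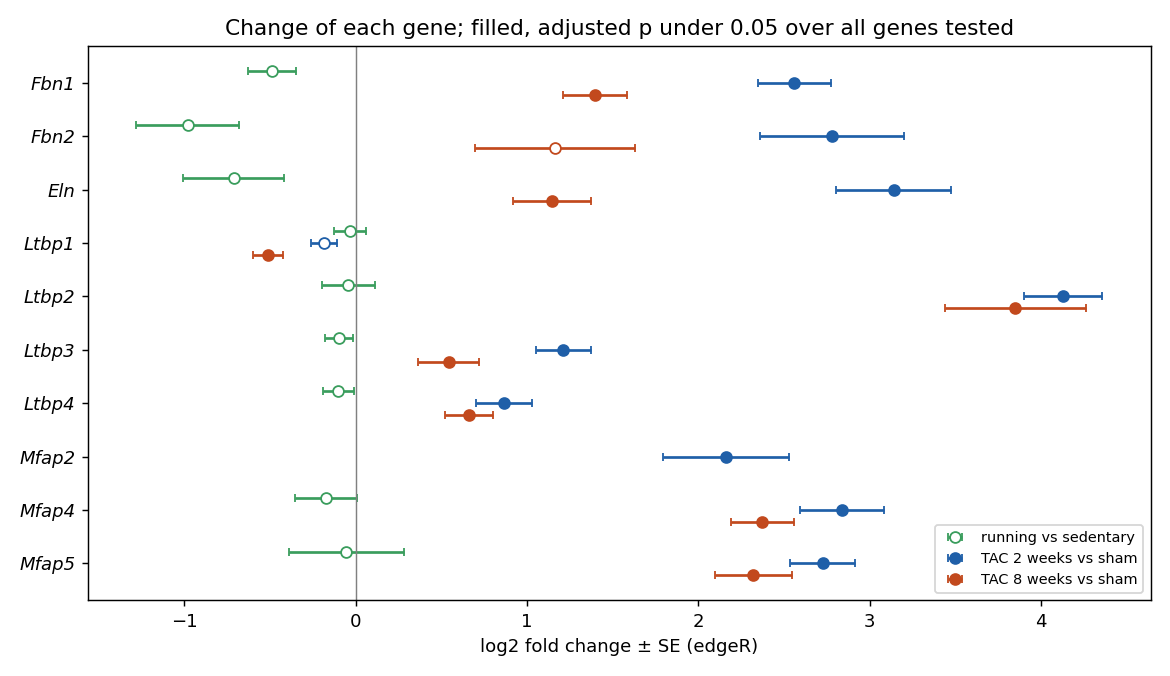
Log2 fold changes (x axis) of the 10 genes in running against sedentary hearts, in TAC at 2 weeks and in TAC at 8 weeks against their own shams; points are edgeR estimates (filled where called) and bars their standard errors. Ltbp2 lies farthest right in both TAC comparisons (4.13 and 3.85), the running estimates lie near 0 or below, and Ltbp1 lies left of 0 under TAC, with no call at 2 weeks (without normalization factors it stands at 0.23 at 2 weeks and -0.18, uncalled, at 8 weeks).

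**Figure D2:**
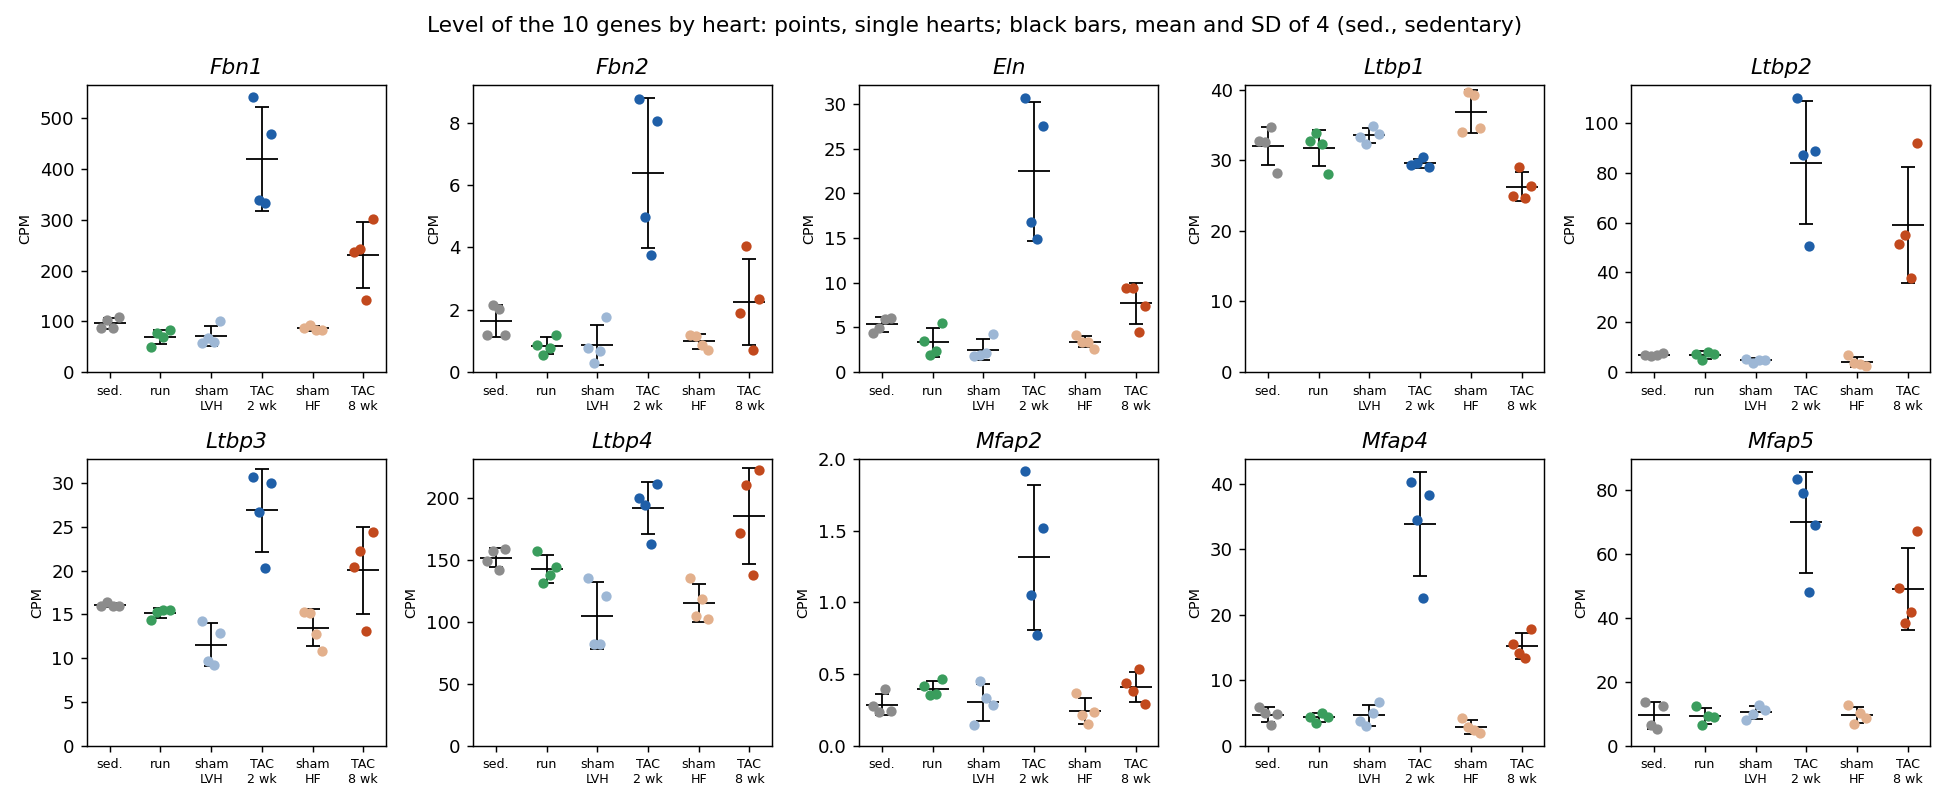
CPM of each gene (linear y axis from 0) in each of the 24 hearts by group; each point is 1 heart and the black bars are the mean and SD of 4 hearts. Fbn1, Eln, Ltbp2, Mfap4 and Mfap5 have their TAC points above every sham point, while Ltbp1 stays between 24.7 and 39.7 CPM in all hearts.

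Several of these genes share exonic sequence with a gene on the opposite strand, and the strand setting of the counting is not given in the sources used here, so such reads cannot be told apart. For Mfap4 the partner is Mapk7, at 1.896 and 2.82 CPM in LVH shams and 2-week TAC hearts. The partners of Fbn1 (Gm9913, 0.352 to 1.46 CPM over these groups), Ltbp2 (D030025P21Rik, 0 to 7 counts per heart) and Fbn2 (Gm26507, 0 to 1 count) were low beside the genes themselves.

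Fbn1 (ENSMUSG00000027204) encodes the main fibrillin of postnatal microfibrils. The LVH shams had 57.4, 67.6, 58.3 and 101 CPM (70.9 ± 20.3), and the 2-week TAC hearts had 541, 339, 333 and 469 CPM (421 ± 102). The HF shams had 87.4, 92.7, 82.5 and 82.7 CPM (86.3 ± 4.79), and the 8-week TAC hearts had 237, 243, 142 and 301 CPM (231 ± 65.6). Every TAC heart exceeded every sham of its own comparison. Fbn1 rose 5.90-fold at 2 weeks (log2 2.56, SE 0.21, edgeR adjusted p = 7.84e-06) and 2.63-fold at 8 weeks (log2 1.39, SE 0.19, adjusted p = 0.000567).

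The estimated 8-week effect on Fbn1 was below the 2-week effect (log2 difference -1.160, SE 0.30), which missed the threshold (edgeR adjusted p = 0.0608) and passed it in 5 of 24 alternatives. Among these were DESeq2 (adjusted p = 0.00491), the fit over all 24 libraries (0.0483) and the fits without LVH sham replicate 4 (0.0243) or 2-week TAC replicate 3 (0.0396). Sedentary hearts had 87.2, 102, 87.1 and 108 CPM of Fbn1 (96.0 ± 10.5) and running hearts 50.03, 76.1, 68.2 and 82.0 CPM (69.1 ± 13.9). All 4 running values lay below all 4 sedentary values, as they did for 1.31% of the genes tested, with 1.72% the other way. The same held for Fbn2 and Ltbp3. The running difference of Fbn1 had no call (log2 -0.49, SE 0.14, edgeR adjusted p = 0.871). It was called in 1 of 16 alternatives, a fit with replicate number as a block (edgeR adjusted p = 0.0172). The main fit does not use replicate numbers as pairs.

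Fbn2 (ENSMUSG00000024598), a fibrillin of embryonic and newly forming microfibrils, was present at low levels. LVH shams had 0.783, 0.281, 0.664 and 1.78 CPM (0.877 ± 0.639, from 5 to 50 counts per heart), and 2-week TAC hearts had 8.75, 4.96, 3.75 and 8.06 CPM (6.38 ± 2.41, from 102 to 281 counts). The groups did not overlap, and Fbn2 rose 6.87-fold (log2 2.78, SE 0.42, edgeR adjusted p = 0.000843). Without LVH sham replicate 4, the highest sham, the estimate was 3.37 on the log2 scale (adjusted p = 0.000152).

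At 8 weeks the Fbn2 values were 1.89, 4.04, 0.704 and 2.35 CPM in TAC hearts (2.25 ± 1.38) and 1.197, 1.171, 0.852 and 0.702 CPM in HF shams (0.980 ± 0.243). TAC replicate 3 lay among the shams, and the difference was not called (log2 1.163, SE 0.46, edgeR adjusted p = 0.0899). Without that heart it was called (log2 1.46, adjusted p = 0.00285), as it was by DESeq2 with all hearts (log2 1.172, adjusted p = 0.0308) and without normalization factors (log2 1.49, edgeR adjusted p = 0.0316). Without TAC replicate 2, the highest heart, the estimate was 0.70 and had no call, and over 16 alternatives the adjusted p ran from 0.00285 to 0.222. Running hearts had 0.879, 0.552, 0.759 and 1.197 CPM and sedentary hearts 1.199, 2.16, 2.03 and 1.199 CPM, apart by less than 0.01 CPM at the nearest, with no call (log2 -0.98, SE 0.30, adjusted p = 0.877).

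Fbn1 made up nearly all fibrillin transcript in every setting. Per kilobase of exon it took 98.4% to 99.2% of the summed Fbn1 and Fbn2 level in the 6 group means.

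Elastin, the protein of the fibre core, is known to be made mostly while tissues grow. Eln (ENSMUSG00000029675) stood at 1.78, 1.85, 2.14 and 4.20 CPM in LVH shams (2.49 ± 1.148) and at 30.7, 16.8, 14.9 and 27.5 CPM in 2-week TAC hearts (22.5 ± 7.78). It was at 4.19, 3.34, 3.41 and 2.63 CPM in HF shams (3.39 ± 0.637) and at 9.44, 9.38, 4.52 and 7.35 CPM in 8-week TAC hearts (7.67 ± 2.32). The groups did not overlap at either time, although at 8 weeks TAC replicate 3 lay just above the highest sham. Eln rose 8.81-fold at 2 weeks (log2 3.14, SE 0.34, edgeR adjusted p = 0.000169) and 2.21-fold at 8 weeks (log2 1.144, SE 0.23, adjusted p = 0.00344).

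Eln was the single gene of the 10 whose TAC effects at 8 and 2 weeks were called different, with the 8-week effect lower (log2 difference -1.99, SE 0.45, edgeR adjusted p = 0.0489). In that contrast 0.422% of 14463 genes were called lower and 0.933% higher. The call was marginal and was lost in 15 of 24 alternatives (adjusted p between 0.000248 and 0.126 over all of them). It was lost on leaving out LVH sham replicate 2 or 3, 2-week TAC replicate 1, 2 or 4, any 1 of the 4 HF shams, or 8-week TAC replicate 1, 3 or 4 (adjusted p 0.0594 to 0.117). Running hearts had 3.51, 1.89, 2.32 and 5.51 CPM and overlapped with the sedentary hearts at 4.40, 4.92, 5.92 and 6.06 CPM (log2 -0.71, SE 0.29, adjusted p = 1.00).

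The LTBP genes went separate ways under TAC. The stretches upstream of their start sites are shown because these 4 relatives ranged from a 17.5-fold rise to a fall. They are RefSeq sequences of build GRCm38.p6, 5′ to 3′ on the gene's strand, from 250 to 81 bases before the outermost annotated start. Capitals mark the letters GTCTG, which Smad proteins, the carriers of the TGF-beta signal, can bind, or their reverse complement CAGAC.
Ltbp1: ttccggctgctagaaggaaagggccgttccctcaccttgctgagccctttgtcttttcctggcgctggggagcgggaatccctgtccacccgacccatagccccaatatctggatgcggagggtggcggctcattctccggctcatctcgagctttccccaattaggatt
Ltbp2: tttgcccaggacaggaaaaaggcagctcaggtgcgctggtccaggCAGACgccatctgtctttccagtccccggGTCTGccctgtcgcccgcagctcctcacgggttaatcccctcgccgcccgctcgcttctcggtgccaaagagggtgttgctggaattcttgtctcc
Ltbp3: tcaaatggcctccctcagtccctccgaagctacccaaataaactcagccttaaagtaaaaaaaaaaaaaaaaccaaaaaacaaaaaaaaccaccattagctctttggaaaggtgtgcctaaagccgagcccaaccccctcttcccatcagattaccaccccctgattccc
Ltbp4: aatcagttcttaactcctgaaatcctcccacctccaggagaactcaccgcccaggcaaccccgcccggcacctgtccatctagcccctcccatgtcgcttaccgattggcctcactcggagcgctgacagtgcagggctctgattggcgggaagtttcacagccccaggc

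Ltbp1 lies on the plus strand at chr17:75005279-75005448, Ltbp2 on the minus strand at chr12:84876572-84876741, Ltbp3 on the plus strand at chr19:5740650-5740819 and Ltbp4 on the minus strand at chr7:27337693-27337862. The GTCTG letters occur at 205 and 176 bases before the Ltbp2 start and in none of the other 3 stretches, while the stretch before the inner start of Ltbp1 holds 2 matches. They occur on either strand in 31.8% of 32851 such windows of 27025 genes, so a match is a description of these letters and not of a bound site. The GC box GGGCGG, found in 19.5% of windows, occurs 1 time before Ltbp2 and 2 times before Ltbp4. The letters searched also included the Smad palindrome GTCTAGAC, the AP-1 letters TGANTCA, the TEAD letters GGAATG, the TATA box TATAAA and the CArG box. They are held by 0.125%, 4.68%, 9.12%, 8.04% and 0.938% of windows and by none of the 4 shown. The Ltbp2 stretch overlaps an exon of the antisense transcript D030025P21Rik.

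Ltbp2 (ENSMUSG00000002020), a microfibril-bound protein that is thought to help elastin assembly, had the largest change of the 10 genes at both times. LVH shams had 5.38, 3.70, 4.94 and 4.91 CPM (4.73 ± 0.719), and 2-week TAC hearts had 109.8, 87.0, 50.7 and 88.7 CPM (84.1 ± 24.5). HF shams had 6.72, 3.47, 3.41 and 2.28 CPM (3.97 ± 1.91), and 8-week TAC hearts had 51.4, 55.0, 37.7 and 91.8 CPM (59.0 ± 23.1). The lowest TAC heart was above the highest sham several times over at each time. The rise was 17.5-fold at 2 weeks (log2 4.13, SE 0.23, edgeR adjusted p = 1.18e-06), the 14th largest increase of 14224 genes, and 14.4-fold at 8 weeks (log2 3.85, SE 0.41, adjusted p = 0.000804), the 8th largest of 13621. The 2 effects were not called different (log2 difference -0.27, adjusted p = 0.796). Sedentary hearts at 6.82, 6.61, 6.77 and 7.80 CPM and running hearts at 7.29, 4.73, 8.15 and 7.28 CPM overlapped (log2 -0.042, SE 0.16).

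Ltbp1 (ENSMUSG00000001870) encodes the LTBP best known for holding latent TGF-beta in the matrix. It had 33.3, 32.3, 34.9 and 33.7 CPM in LVH shams (33.5 ± 1.07) and 29.3, 29.5, 30.5 and 29.0 CPM in 2-week TAC hearts (29.6 ± 0.649). HF shams had 33.9, 39.7, 39.2 and 34.6 CPM (36.8 ± 3.03), and 8-week TAC hearts had 24.9, 29.1, 24.7 and 26.4 CPM (26.3 ± 2.01). The TAC values lay below all sham values at both times, as for 15.6% of genes tested at 2 weeks and 13.5% at 8 weeks.

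Ltbp1 fell 1.42-fold at 8 weeks (log2 -0.51, SE 0.09, edgeR adjusted p = 0.000719), a call that needs normalization factors, since scaling by total count alone gave -0.18 (adjusted p = 0.165). At 2 weeks the estimate had no call by edgeR (log2 -0.19, SE 0.08, adjusted p = 0.0750), was called by DESeq2 (log2 -0.20, adjusted p = 0.0447) and turned to 0.23 with scaling by total count alone. That scaling moved the median of all genes tested by 0.41 at 2 weeks and by 0.33 at 8 weeks. A change of scaling moves all genes by nearly the same amount. That Ltbp1 stayed below those medians at both times was thus built in and shows nothing further about a fall. Sedentary hearts had 32.7, 32.6, 34.6 and 28.2 CPM and running hearts 32.7, 33.8, 32.2 and 28.0 CPM (log2 -0.031, SE 0.09).

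Ltbp3 (ENSMUSG00000024940) encodes an LTBP that also binds latent TGF-beta. LVH shams had 14.2, 9.71, 9.19 and 12.9 CPM (11.5 ± 2.46), and 2-week TAC hearts had 30.7, 26.6, 20.3 and 29.9 CPM (26.9 ± 4.74). No values overlapped, and the rise was 2.32-fold (log2 1.213, SE 0.16, edgeR adjusted p = 0.00014). At 8 weeks TAC hearts had 20.4, 22.2, 13.0 and 24.4 CPM (20.0 ± 4.94) and HF shams 15.3, 15.1, 12.8 and 10.8 CPM (13.5 ± 2.13), and TAC replicate 3 lay within the shams. The 1.46-fold rise there (log2 0.54, SE 0.18, adjusted p = 0.0442) was lost in 8 of 16 alternatives. These were the fit with no filter on low counts (adjusted p = 0.0847) and the fits that left out any 1 HF sham or 8-week TAC replicate 1, 2 or 4 (adjusted p 0.0535 to 0.111). Running hearts had 14.4 to 15.5 CPM, just below the sedentary hearts at 16.0 to 16.4 CPM, with no call (log2 -0.10, SE 0.08).

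Ltbp4 (ENSMUSG00000040488) encodes an LTBP that takes part in elastin assembly and holds latent TGF-beta weakly. LVH shams had 136, 81.9, 82.5 and 121 CPM (105 ± 27.2), and 2-week TAC hearts had 200.4, 194, 163 and 211 CPM (192 ± 20.9). HF shams had 135, 105, 119 and 102 CPM (115 ± 15.1), and 8-week TAC hearts had 172, 211, 138 and 223 CPM (186 ± 38.7). At 8 weeks the lowest TAC heart was only just above the highest sham. Ltbp4 rose 1.82-fold at 2 weeks (log2 0.86, SE 0.16, edgeR adjusted p = 0.00131) and 1.58-fold at 8 weeks (log2 0.66, SE 0.14, adjusted p = 0.00421). Running left it at 131 to 158 CPM beside 142 to 159 CPM in sedentary hearts (log2 -0.10, SE 0.09).

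Expressed per kilobase of exon, the make-up of the LTBP transcripts shifted towards Ltbp2 under TAC. Ltbp2 made 2.77% ± 0.443 of the summed LTBP level in LVH shams (2.50% to 3.43%) and 22.1% ± 3.93 in 2-week TAC hearts (17.0% to 26.5%). Its share went from 2.03% ± 0.744 in HF shams (1.36% to 3.08%) to 17.4% ± 3.21 at 8 weeks (15.1% to 22.1%). Ltbp1 went the other way in share, with 11.8% to 18.5% in LVH shams and 5.42% to 7.82% in 2-week TAC hearts, and 11.9% to 16.8% and 4.85% to 7.78% in HF shams and 8-week TAC hearts. These shares are taken within a heart and do not depend on the scaling between libraries, but they do depend on the exon lengths used. They are parts of a whole, so a lower Ltbp1 share does not by itself show a lower Ltbp1 level. Ltbp4 remained the main LTBP throughout, at 76.0% ± 3.57 and 65.3% ± 3.18 in LVH shams and 2-week TAC hearts, and 76.6% ± 2.09 and 71.0% ± 2.33 in HF shams and 8-week TAC hearts. Ltbp3 held 5.98% and 6.46% at 2 weeks and 6.40% and 5.41% at 8 weeks, shams first. Sedentary and running hearts had 2.94% and 3.03% Ltbp2 and 80.6% and 80.1% Ltbp4.

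**Figure D3:**
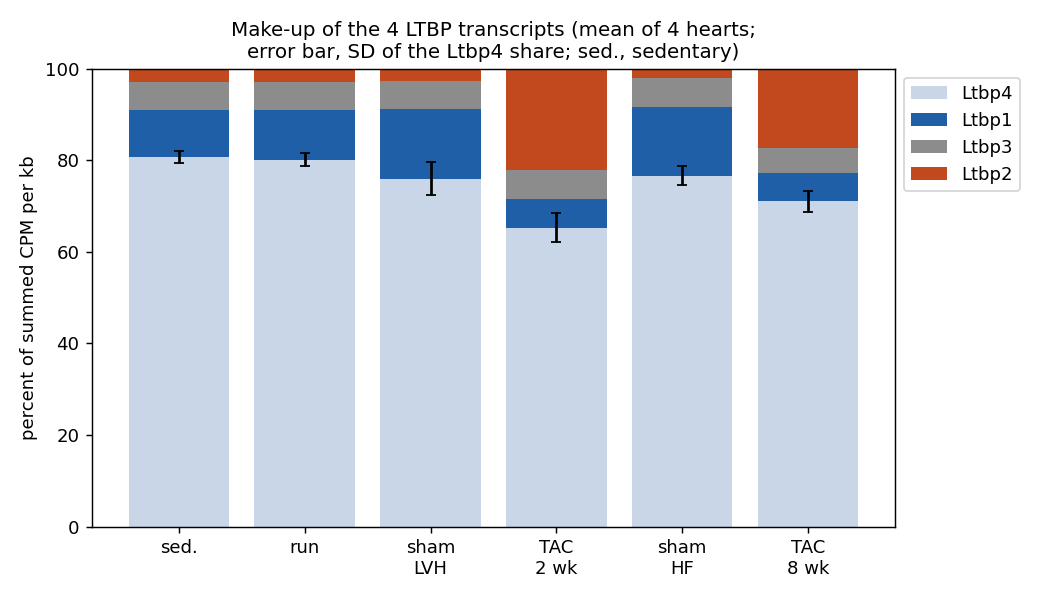
Stacked bars of the share of the summed LTBP level (CPM per kilobase of exon, y axis in percent from 0) taken by Ltbp4, Ltbp1, Ltbp3 and Ltbp2, as means of 4 hearts per group on the x axis; the error bar is the SD of the Ltbp4 share. Over single hearts the Ltbp2 share is 1.36% to 3.43% in the sham hearts and 15.1% to 26.5% in the TAC hearts.

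Mfap2 (ENSMUSG00000060572), also known as MAGP-1, is a small protein attached to fibrillin, and its transcript was near the lower limit of these data. LVH shams had 0.142, 0.449, 0.332 and 0.285 CPM (0.302 ± 0.127, from 4 to 9 counts), and 2-week TAC hearts had 1.91, 1.05, 0.773 and 1.52 CPM (1.31 ± 0.504, from 21 to 54 counts). Mfap2 passed the filter on low counts only through the TAC hearts, so that a difference was built into its being tested. The fitted rise was 4.47-fold (log2 2.16, SE 0.37, edgeR adjusted p = 0.000553). At 8 weeks it was not tested, and TAC hearts at 0.436, 0.384, 0.538 and 0.290 CPM overlapped with HF shams at 0.368, 0.217, 0.150 and 0.234 CPM. Running hearts had 0.355 to 0.468 CPM and sedentary hearts 0.234 to 0.395 CPM, also not tested.

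Mfap4 (ENSMUSG00000042436) encodes a fibrinogen-domain protein of the extracellular matrix that binds elastin and fibrillin. LVH shams had 3.85, 3.03, 4.98 and 6.69 CPM (4.64 ± 1.59), and 2-week TAC hearts had 40.2, 34.5, 22.5 and 38.3 CPM (33.9 ± 7.94). HF shams had 4.28, 2.82, 2.35 and 1.99 CPM (2.86 ± 1.01), and 8-week TAC hearts had 15.5, 14.1, 13.5 and 17.8 CPM (15.2 ± 1.94). Sham and TAC values were far apart at both times, and the 8-week TAC hearts were close to each other. Mfap4 rose 7.15-fold at 2 weeks (log2 2.84, SE 0.24, edgeR adjusted p = 2.34e-05) and 5.18-fold at 8 weeks (log2 2.37, SE 0.18, adjusted p = 3.97e-06), where its p ranked 31st of 13621 genes. Running hearts had 3.47 to 5.03 CPM and sedentary hearts 3.16 to 5.96 CPM (log2 -0.17, SE 0.18).

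Mfap5 (ENSMUSG00000030116), also known as MAGP-2, binds fibrillin and is often used as a fibroblast marker. LVH shams had 8.08, 9.82, 12.9 and 11.3 CPM (10.5 ± 2.06), and 2-week TAC hearts had 83.7, 79.3, 48.1 and 69.0 CPM (70.0 ± 15.9). HF shams had 12.8, 6.90, 10.3 and 8.71 CPM (9.67 ± 2.50), and 8-week TAC hearts had 49.3, 38.4, 41.8 and 67.2 CPM (49.2 ± 12.8). Both TAC groups stood clear of their shams. The rise was 6.62-fold at 2 weeks (log2 2.73, SE 0.19, edgeR adjusted p = 3.2e-06) and 5.00-fold at 8 weeks (log2 2.32, SE 0.22, adjusted p = 0.000147). Sedentary hearts spread from 5.13 to 13.6 CPM and running hearts from 6.59 to 12.6 CPM (log2 -0.054, SE 0.34).

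Apart from Eln, none of the 10 genes had an 8-week TAC effect called different from its 2-week effect by edgeR. The log2 differences (8 weeks minus 2 weeks) were all below 0: -1.61 for Fbn2 (adjusted p = 0.243, and -2.21 with adjusted p = 0.122 without LVH sham replicate 4), -1.44 for Mfap2 (0.182), -0.67 for Ltbp3 (0.183), -0.46 for Mfap4 (0.499), -0.40 for Mfap5 (0.519), -0.32 for Ltbp1 (0.125) and -0.19 for Ltbp4 (0.692). Mfap2 entered this contrast only through the 2-week TAC hearts, so that a value below 0 was built into its being tested. It had 8 to 13 counts in 8-week TAC hearts and 3 to 8 in HF shams. For Ltbp1, whose TMM-scaled estimates were below 0 at both times (but 0.23 at 2 weeks without normalization factors), the later estimate was the larger in size, and for the others the smaller. These p-values do not show that the effects at both times were alike. The 2 effects have separate TAC and sham hearts, so no heart enters both.

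The TAC effects were also set against the running effect. At 2 weeks 9 of the 10 genes had a higher TAC effect, where 9.5% of 14729 genes were called higher and 9.56% lower. One of the 9, Mfap2, entered this contrast only through the 2-week TAC hearts, with 4 to 9 counts in each sedentary, running and LVH sham heart, so that a difference was built into its being tested. The largest differences were those of Ltbp2 (log2 4.17, edgeR adjusted p = 1.51e-07), Eln (3.86, 0.000136), Fbn2 (3.77, 0.000295, and 4.35 without LVH sham replicate 4), Fbn1 (3.05, 9.7e-07) and Mfap4 (3.02, 1.28e-05). Mfap5 (2.78, 0.000433), Ltbp3 (1.31, 6.39e-05) and Ltbp4 (0.96, 0.0017) followed. Mfap2 (1.696, 0.0305) lost its call without sedentary replicate 1 or 3, running replicate 2 or 3, LVH sham replicate 1 or 2-week TAC replicate 1 or 4 (adjusted p 0.0556 to 0.0736). Ltbp1 was not called (-0.16, 0.377), and its sign turned to 0.33 without normalization factors.

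Against the same running and sedentary hearts, the 8-week TAC effect was higher for 8 of 9 tested genes and lower for Ltbp1, where 5.74% of 14252 genes were called higher and 5.35% lower. The differences were log2 3.90 for Ltbp2 (edgeR adjusted p = 0.000114), 2.56 for Mfap4 (9.77e-06), 2.39 for Mfap5 (0.00421), 1.89 for Fbn1 (0.000129), 1.87 for Eln (0.00921) and 0.77 for Ltbp4 (0.00654). The Fbn2 difference of 2.15 (0.0233) was lost without sedentary replicate 2 (adjusted p = 0.0546), without HF sham replicate 4 (0.0521) or with no filter on low counts (0.0645). The Ltbp3 difference of 0.65 (0.0371) was lost in 14 of 24 alternatives. These were the fit over all libraries (0.0665) and those without any 1 of the sedentary or running hearts, HF sham replicate 3 or 4, or 8-week TAC replicate 1, 2 or 4 (0.0513 to 0.0947). The Ltbp1 difference of -0.47 (0.0207) shrank to -0.077 (0.799) without normalization factors.

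The 2 sham groups gave no call for any of the 9 genes tested, where 2.2% of 13656 genes were called higher and 1.44% lower in HF shams (3.64% in all). For each of the 10 genes the values of both sham groups overlapped, while 6.44% of all genes tested lay wholly higher in HF shams and 6.39% wholly lower. The Fbn1 difference of 0.30 (log2, HF minus LVH shams, edgeR adjusted p = 0.282) was called when LVH sham replicate 4 was left out (0.51, adjusted p = 0.0288). Mfap4 had -0.68 (adjusted p = 0.178).

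Within the TAC groups, and in some groups without TAC, the same hearts tended to be high or low across these genes. In the 2-week TAC group replicate 3 had the lowest value of 9 of the 10 genes and replicate 1 the highest of 8. In the 8-week TAC group replicate 3 was lowest for 8 and replicate 4 highest for 6. The summed level of 13 activated fibroblast markers had its lowest value in the same hearts, at 828 CPM in 2-week replicate 3 beside 1121, 1251 and 1389 CPM in the others, and at 500.4 CPM in 8-week replicate 3 beside 644, 687 and 902 CPM. The mitochondrial share of counts was highest in these same hearts, at 58.4% beside 50.7% to 55.2% at 2 weeks and 57.6% beside 52.7% to 55.9% at 8 weeks. Outside TAC, HF sham replicate 1 was highest for 8 genes and replicate 4 lowest for 6, and running replicate 2 was lowest for 7. The mitochondrial share was highest of its group in HF sham replicate 4 (67.0%). In running replicate 2 it was the lowest of its group (62.1% beside 66.4% to 73.6%). The part of the fibroblast markers or of the mitochondrial share in the order of the hearts was not tested.

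Levels can be compared between genes only per transcript length, given here as CPM per kilobase of exon. In LVH shams Ltbp4 led at 16.3, followed by Fbn1 at 5.85, Ltbp1 at 3.14, Mfap5 at 2.93, Mfap4 at 2.41, Ltbp3 at 1.27, Ltbp2 at 0.578, Eln at 0.308, Mfap2 at 0.249 and Fbn2 at 0.0664. The values of Ltbp1 and Mfap5, of Mfap5 and Mfap4, of Ltbp2 and Eln, of Eln and Mfap2 and of Mfap2 and Fbn2 overlapped between hearts. Sedentary and running hearts had the same order of means, and HF shams differed from it only in that Ltbp3 (1.489) and Mfap4 (1.488) were almost equal.

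At 2 weeks of TAC the order of levels was Fbn1 at 34.7 ± 8.44 CPM per kilobase, Ltbp4 at 29.7 ± 3.24, Mfap5 at 19.5, Mfap4 at 17.6, Ltbp2 at 10.3, Ltbp3 at 2.97, Eln and Ltbp1 at 2.77, Mfap2 at 1.09 and Fbn2 at 0.483. Fbn1 and Ltbp4 did not differ beyond the spread of the hearts. The values of Mfap5 and Mfap4, Mfap4 and Ltbp2, Ltbp3 and Eln, Eln and Ltbp1, and Mfap2 and Fbn2 overlapped as well. Taking the longest transcript as the length put Ltbp4 (35.7) above Fbn1 (35.1) and Eln (5.83) above Ltbp3 (4.70). Ltbp2 had passed both Ltbp1 and Ltbp3, whose values did not overlap with it. At 8 weeks the mean of Ltbp4 was highest at 28.8, ahead of Fbn1 at 19.0, Mfap5 at 13.7, Mfap4 at 7.93, Ltbp2 at 7.21, Ltbp1 at 2.46, Ltbp3 at 2.21, Eln at 0.947, Mfap2 at 0.340 and Fbn2 at 0.170. The values of Ltbp4 and Fbn1, Fbn1 and Mfap5, Mfap4 and Ltbp2, Ltbp1 and Ltbp3, and Mfap2 and Fbn2 overlapped there. The longest transcript as length put Mfap5 (19.7) above Fbn1 (19.3) and Ltbp2 (8.71) above Mfap4 (8.61). Elastin transcript thus stayed below Fbn1 and Ltbp4 transcript in every group.

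**Figure D4:**
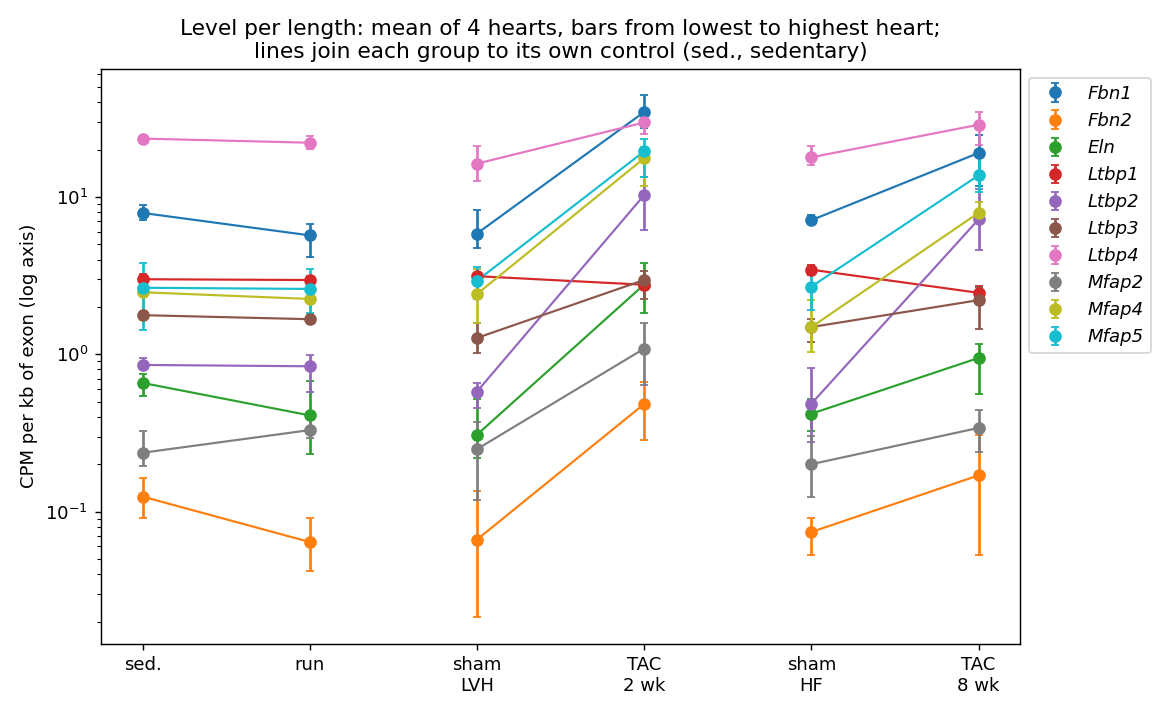
Mean level of the 10 genes in CPM per kilobase of exon (log axis) in each of the 6 groups; points are means of 4 hearts, bars run from the lowest to the highest heart and lines join each group to its own control. Ltbp4 leads in 5 groups (16.3 to 28.8), Fbn1 and Ltbp4 overlap at 2 weeks of TAC, and Ltbp2 moves from 0.578 in LVH shams to 10.3.

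Counts in the lists that follow stand beside the shares over all genes, 17.1% higher and 16.1% lower at 2 weeks and 14.9% and 14.7% at 8 weeks, and a list near those shares is no result about it. Genes that help assemble elastic fibres mostly rose with TAC. Of 19 tested, 14 rose and 2 fell at 2 weeks (median log2 1.57) and 13 rose and 2 fell at 8 weeks (median 0.94). Lox, the oxidase that starts elastin and collagen cross-links, rose by log2 4.15 at 2 weeks (edgeR adjusted p = 0.000171) and 2.32 at 8 weeks (0.0179). The related oxidases Loxl3 (2.50 and 2.47) and Loxl2 (2.18 and 1.47) rose at both times, as did the matrix collagen Col8a1 (3.09 and 2.99). The fibulin Fbln5, which tethers elastin to microfibrils and cells, rose by 1.597 and 0.94. Those that fell were Efemp1, a fibulin (-0.84 and -1.32), and Emilin2, a glycoprotein related to the elastic fibre protein Emilin1 (-0.94 and -1.02). Both stayed below 0 with scaling by total count alone, where Efemp1 at 2 weeks lost its call (-0.42, adjusted p = 0.110). With running no gene of the related lists was called.

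Among 11 tested ADAMTS-family and related proteins tied to microfibrils, 7 rose and 1 fell at 2 weeks, and 3 rose and 1 fell of 9 at 8 weeks. The falls were no more than the share over all genes, as were those in the latent TGF-beta, signalling and breakdown lists. Adamtsl2, which binds fibrillin and Ltbp1, rose by log2 2.35 at 2 weeks (edgeR adjusted p = 4.05e-06) and 2.29 at 8 weeks. Adamtsl4, another fibrillin-binding protein, fell at both times (-0.40 and -0.40), a direction that turned to 0.030 at 2 weeks and a call that was lost at 8 weeks (-0.069) with scaling by total count alone. Of 4 other genes that carry the Mfap name but belong to other families, 0 rose and 1 fell at 2 weeks, and 0 rose and 2 fell at 8 weeks. Mfap3l was the 1 that fell at both (-0.81 and -0.45), and Mfap1a fell at 8 weeks (-0.33), where scaling by total count alone left it at 0.0022. Under that scaling 1 of the 4 rose and 1 fell at 2 weeks, and 2 rose and 0 fell at 8 weeks. The Mfap3l fall at 8 weeks thus had no call there.

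The genes of latent TGF-beta and its release were measured beside the LTBPs. Of 20 tested, 13 rose and 2 fell at 2 weeks (median log2 0.78), and of 19 tested, 9 rose and 2 fell at 8 weeks (0.41). Tgfb2 (1.603 and 1.222) and Tgfb3 (1.63 and 1.198) rose at both times, while Tgfb1 was not called (0.76, edgeR adjusted p = 0.0546; 0.41, adjusted p = 0.196). Among the proteins that free the ligand, Thbs1 rose at 2 weeks (2.85, adjusted p = 3.43e-05) and was not called at 8 weeks (0.69, 0.478). The matrix proteases Mmp14 (2.07 and 0.65) and Bmp1 (1.169 and 0.30) rose at both times. The drop in the Bmp1 effect from 2 to 8 weeks was itself called (log2 difference -0.86, adjusted p = 0.0088). Furin, which cleaves the TGF-beta precursor (-0.40 and -0.52), and the serine protease Htra1 (-0.62 and -0.46) fell at both times. With scaling by total count alone Furin stood at 0.036 and -0.19 and Htra1 at -0.22 and -0.13, with no call.

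Of 20 tested genes of TGF-beta signalling and its targets, 13 rose and 1 fell at 2 weeks, and 10 rose and 2 fell at 8 weeks. The matricellular target Ccn2 rose by log2 2.77 at 2 weeks (edgeR adjusted p = 5.98e-05) and 1.62 at 8 weeks (0.0478), the receptor Tgfbr1 rose by 0.92 at both times and the co-repressor Skil by 0.84 and 0.57. The co-receptor Tgfbr3 fell (-0.55 and -0.44), and the signal carrier Smad3 was at 0.18 at 2 weeks (0.249) and fell at 8 weeks (-0.61, 0.0461). Neither fall was called with scaling by total count alone (-0.15 and -0.10 for Tgfbr3, -0.28 for Smad3).

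Enzymes and inhibitors of elastin breakdown also moved. Of 12 tested, 7 rose and 0 fell at 2 weeks, and of 11 tested, 9 rose and 0 fell at 8 weeks. Timp1, an inhibitor of matrix metalloproteinases, rose by log2 3.58 and 2.41 and the gelatinase Mmp2 by 2.01 and 1.231, with a smaller Mmp2 effect at 8 weeks (log2 difference -0.77, edgeR adjusted p = 0.0433). The elastin-cleaving cathepsin Ctsk rose by 1.89 and 1.69. The macrophage elastase Mmp12 was not called at 2 weeks (0.35, adjusted p = 0.414) and not tested at 8 weeks.

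**Figure D5:**
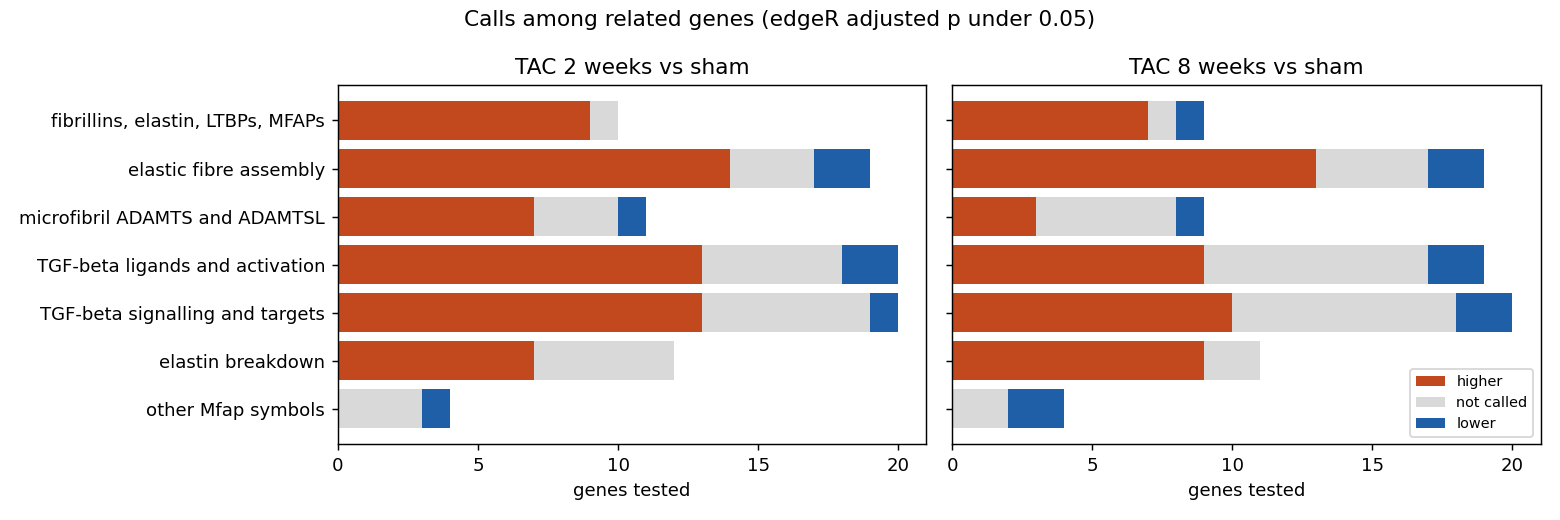
Stacked bars of the number of tested genes (x axis) called higher, not called or called lower by edgeR among the 10 genes and in each related list, for TAC at 2 weeks and at 8 weeks against shams. In the assembly list 14 of 19 are higher at 2 weeks and 13 of 19 at 8 weeks; calls of decreases in several lists, and that of Ltbp1, need normalization factors.

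Markers of the cell types that could make these transcripts were read in the same hearts. In bulk tissue, fewer cells of a type and less RNA per cell cannot be told apart. Of 15 tested fibroblast markers, 12 rose and 1 fell at 2 weeks and 9 rose and 1 fell at 8 weeks. These counts include Mfap5, 1 of the 10 genes, which rose at both times. Without Mfap5 the sum of the other 14 markers was 1090.1 to 1378 CPM in LVH shams and 2405 to 3216 in 2-week TAC hearts. It was 921 to 1251 in HF shams and 1614 to 1916 in 8-week TAC hearts. Activated fibroblast markers rose in 12 of 13 cases at 2 weeks and 11 of 12 at 8 weeks. Their sum over 13 genes was 103 to 147 CPM and 828 to 1389 CPM at 2 weeks, and 70.9 to 138 CPM and 500.4 to 902 CPM at 8 weeks, shams first. The summed markers of both fibroblast lists thus had no overlap between sham and TAC hearts, and their part in the changes of the 10 genes was not tested.

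Smooth muscle, the main source of elastin in arteries, was read by 10 markers. Of these 4 rose and 2 fell at 2 weeks and 2 rose and 1 fell at 8 weeks, the latter near the share over all genes. Their sum was 153 to 164 CPM in LVH shams, 178 to 196 in 2-week TAC hearts, 168 to 194 in HF shams and 144 to 185 in 8-week TAC hearts. The contractile genes Acta2 (log2 0.16, edgeR adjusted p = 0.518) and Myh11 (0.24) were not called at 2 weeks, although Acta2 was with scaling by total count alone (0.56, adjusted p = 0.0110). Of 12 macrophage markers 11 rose at 2 weeks and 10 at 8 weeks, and their sum was 161 to 251 and 320.2 to 417 CPM at 2 weeks and 119 to 178 and 198 to 304 CPM at 8 weeks, shams first. Of 11 endothelial markers 6 rose and 0 fell at 2 weeks, and 0 rose and 0 fell at 8 weeks. Scaled by total count alone, 9 and 8 of them rose. The endothelial sum was 446 to 544 and 576 to 583 CPM at 2 weeks, shams first. At 8 weeks it was 455 to 606 and 525 to 544 CPM. The smooth muscle, macrophage and endothelial sums had no overlap between sham and TAC hearts at 2 weeks. At 8 weeks only the macrophage sum among these had none. Of 11 cardiomyocyte markers 8 fell at 2 weeks and 5 at 8 weeks, when 1 rose. With scaling by total count alone these were 4 and 2 falls, beside 1 and 2 rises. Chondrocyte markers, some of which heart valves also express, summed to only 1.66 to 8.43 CPM over these 4 groups. Of 3 tested, Acan (log2 2.86) and Sox9 (1.66) were called higher at 2 weeks and 0 lower. At 8 weeks 1 was called higher and 1 lower of 3 tested (median log2 -0.46). The summed skeletal muscle markers did not overlap between sham and TAC hearts either, at 557 to 806 and 847 to 1016 CPM at 2 weeks and 557 to 599 and 1511 to 1910.4 CPM at 8 weeks, shams first. The skeletal actin gene Acta1, which the heart also expresses, rose (log2 3.09 and 4.73) and the muscle creatine kinase gene Ckm fell at 2 weeks (-0.81). Of 8 pericyte markers 4 rose and 1 fell at 2 weeks, and 2 rose and 1 fell at 8 weeks. Pericyte markers summed to 589 to 799.7 CPM and lymphocyte markers to at most 1.49 CPM in these hearts. The part of these cell types in the changes was not tested.

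For each gene the 3 genes with the most alike pattern were found among 10430 genes of at least 2 CPM on average, as the root mean square (rms) difference of centred log2 CPM over the 6 group means. Over so few points this is a description of these groups. Nearest to Ltbp2 were Cilp (0.127), Col12a1 (0.176) and Thbs4 (0.222), and nearest to Fbn1 were Dchs2 (0.152), the large cadherin named in the study's title, Loxl2 (0.159) and Lhfpl2 (0.176). Eln (0.170) and Fbn2 (0.210) both had Col1a1, the main fibrillar collagen chain, as nearest gene. Nearest to Mfap4 was Pamr1 (0.136) and to Mfap5 Frzb (0.114), to Ltbp3 Ift122 (0.0755), to Ltbp4 Fam129b (0.0375), to Ltbp1 Aptx (0.0452) and to Mfap2 Igf1 (0.164).

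Among the 10 genes themselves, Eln and Fbn2 were the most alike pair (rms 0.107), ahead of Ltbp3 and Ltbp4 (0.137), Eln and Fbn1 (0.280) and Mfap4 and Mfap5 (0.319). Ltbp1 and Ltbp2 were the least alike (1.88). Each of the 10 genes lies on a chromosome of its own.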

How the data were processed

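RNA of 24 mouse hearts was sequenced by the submitters, 4 hearts in each of 6 groups. Values are estimated counts of each gene as deposited, in whole numbers. The tools were FastQC and Salmon and the build was mm9, per the submitters' processing notes. The sources used here give no version, annotation or strand setting. Rows without a gene name (1 row, 0 counts) were left out. Symbols were matched by Ensembl ID (42462 matched, 970 not).

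Testing used edgeR 4.0.16 under R 4.3.3 (filterByExpr, TMM, robust quasi-likelihood F test, two-sided, Benjamini-Hochberg adjustment over all genes tested, threshold 0.05). Each pair of groups was fitted on its own 8 libraries, and differences between effects as contrasts of 16. DESeq2 1.42.0 was an alternative, beside other scalings, no filter, a fit over all 24 libraries, a replicate block and leaving out each library. The scripts were checked on simulated data. Log2 CPM used a prior count of 2. Exon lengths came from GENCODE vM21 (GRCm38) and promoter sequences from RefSeq GRCm38.p6, which held 6 of the 10 genes. Motifs were read on both strands of windows of 170 bases.

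The genes and lists were chosen with earlier results of these data known. Named were the 10 genes, up to 4 genes per process list with the smallest p in each TAC comparison, and the 3 nearest patterns per gene. Efemp1, Emilin2, Adamtsl4, Mfap3l, Mfap1a, Furin, Htra1, Tgfbr3, Smad3, Tgfb1, Mmp12, Mmp14, Bmp1, Fbln5, Acan, Sox9, Acta2 and Myh11 were named after their values were seen. Lox, Tgfb2, Thbs1, Acta1 and Ckm were also named outside this rule. Of 214 list symbols 1 was unmatched.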

Additional observations from a re-analysis of the deposited data

Results flagged for a closer look

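In 60 sets of 4 values, 1 for each gene and group, a heart far from the other 3 was looked for with Dixon's test, and 2 exceeded its critical value. Chance flags about 1 in 20 groups. Eln in LVH sham replicate 4 was at 4.20 CPM, and the nearest other sham was at 2.14. Ltbp3 in sedentary replicate 2 was at 16.4 CPM, with the nearest at 16.0.

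Effects of 2 settings differed by a test of the difference itself in 19 cases (edgeR, log2 differences). The 8-week TAC effect minus the 2-week TAC effect was -1.99 for Eln. The 2-week TAC effect minus the running effect was 3.05 for Fbn1, 3.77 for Fbn2, 3.86 for Eln, 4.17 for Ltbp2, 1.31 for Ltbp3, 0.96 for Ltbp4, 1.696 for Mfap2 (tested only through its level in the TAC hearts), 3.02 for Mfap4 and 2.78 for Mfap5. The 8-week TAC effect minus the running effect was 1.89 for Fbn1, 2.15 for Fbn2, 1.87 for Eln, -0.47 for Ltbp1 (-0.077 without normalization factors), 3.90 for Ltbp2, 0.65 for Ltbp3, 0.77 for Ltbp4, 2.56 for Mfap4 and 2.39 for Mfap5. These TAC effects share the same running and sedentary hearts.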

How the results depend on the processing

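The Ltbp2, Mfap4, Mfap5, Fbn1, Eln and Ltbp4 rises kept their call at 2 and 8 weeks of TAC under every alternative run. Without normalization factors, 7609 genes were called at 2 weeks (4717 with TMM), 6643 at 8 weeks (4032), 4720 for the 2-week effect minus running (2807), 3198 for the 8-week effect minus running (1581) and 30 for the 8-week minus the 2-week effect (196), with median shifts of 0.41, 0.33, 0.48, 0.39 and -0.10. The calls then split 6995 higher and 614 lower (2428 and 2289 with TMM), 6075 and 568 (2032 and 2000), 4506 and 214 (1399 and 1408), 3028 and 170 (818 and 763), 14 and 16 (135 and 61) and, for the shams, 111 and 252 (301 and 196). Under it Ltbp1 reversed to 0.23 at 2 weeks and 0.33 for the 2-week effect minus running, and 0 of the 10 genes were lower at 8 weeks or against running (1 with TMM). DESeq2 called 1 of the 10 genes lower at 2 weeks, and of all genes 6 with running, 645 for the 8-week minus the 2-week effect and 845 between shams (497 by edgeR). With no filter on low counts these were 2 genes with running and 768 between shams. Of the 10 genes, those with a lower 8-week than 2-week effect numbered 2 by DESeq2, 2 over all 24 libraries, and 0 with DESeq2 size factors, without normalization factors or with no filter (1 as reported). Leaving out 1 library gave 0 to 2 there, 22 to 654 genes in all, 0 to 3 genes with running, 57 to 1081 genes between shams and 0 to 1 of the 10 genes between shams. The cause of these shifts was not tested. Small values changed sign without single libraries, their ranges being, with running, -0.084 to 0.020 for Ltbp1 (above 0 without sedentary replicate 3 or running replicate 4), -0.14 to 0.11 for Ltbp2 (sedentary replicate 4 or running replicate 2) and -0.25 to 0.19 for Mfap5 (sedentary replicate 1 or 4 or running replicate 2). They were -0.56 to 0.11 for Ltbp2 in the 8-week minus the 2-week effect (above 0 without HF sham replicate 1) and, between shams, -0.10 to 0.72 for Fbn2 (below 0 without LVH sham replicate 2) and -0.28 to 0.030 for Mfap5 (above 0 without LVH sham replicate 3 or HF sham replicate 2). Replicate numbers were not used as pairs in the main fits. Same-numbered deviations correlated at 0.0355 to 0.468 for running, -0.0386 to 0.258 at 2 weeks and -0.274 to 0.126 at 8 weeks. For running, replicates 1 and 2 correlated best with their own number and replicates 3 and 4 did not. With 4 hearts per group these values cannot settle whether the hearts were paired. A replicate block called 47 genes with running, among them 1 of the 10 (Fbn1 lower, adjusted p = 0.0172), 656 genes and 2 of the 10 for the 8-week minus the 2-week effect (Eln and Fbn1), and turned Mfap5 with running to 0.016. Counts below about 10 per heart limit Mfap2, and the strand setting limits genes with an antisense partner.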
